A study of Mus musculus with 2 samples.

Results

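Neuromodulator receptors are the proteins through which serotonin, dopamine, acetylcholine, noradrenaline, adrenaline and histamine act on cells. The chromatin of their genes was examined in the left cerebral cortex of mice by DNase-seq, which cuts nuclear DNA with DNase I so that open stretches collect many cuts. Members were the protein-coding genes on chromosomes 1 to 19 whose symbol is Htr, Drd, Chrm, Chrn, Adra, Adrb or Hrh with a number, or with 1 letter and digits. That rule found 53 of 20807 protein-coding genes. Of these, 49 encode receptors or receptor subunits, and they are the genes described here. The other 4, Htra1 to Htra4, encode HtrA serine proteases and match by spelling alone. The receptor genes comprise 13 of serotonin, 5 of dopamine, 5 of muscarinic and 13 of nicotinic acetylcholine receptors, 9 of adrenergic and 4 of histamine receptors. The rule leaves out Htr2c, on the X chromosome, and the muscle nicotinic genes Chrnd, Chrne and Chrng, whose symbols carry no digit.

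The samples were the left cerebral cortices of 2 female B6CASTF1/J mice, a first-generation hybrid strain, aged 2 months, with no treatment named in the labels. Both libraries form 1 group, named replicate 1 and replicate 2 after the labels, which number the females separately but give both the same donor entry. No conditions could therefore be compared, and no test was made: values are given for each library, with the SD over the 2, and counts stand beside the same counts over all protein-coding genes. The larger peak lists hold 128323 peaks in replicate 1 and 119651 in replicate 2. If the smallest step between deposited signal values is worth 1 cut, sequencing depth was near 206 M cuts for the first library and 208 M for the other.

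Most of these receptors are G protein-coupled. Gs-coupled members raise cyclic AMP, Gi-coupled members lower it, and Gq-coupled members activate phospholipase C. Nicotinic receptors and the serotonin receptor built from Htr3 subunits are instead ion channels opened by the transmitter. In the cortex the transmitters arrive mainly on long axons from brainstem, basal forebrain and hypothalamus, so that the cortex holds the receptors but few of the cells that make monoamines. Receptor genes are often active in a few cell types only, and in whole tissue a weak peak in many cells and a strong peak in few cells cannot be told apart.

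A promoter peak means here a peak that reaches within 500 bp of the outermost annotated 5′ end, and the promoter signal is the authors' deposited height of the highest such peak, a density of cuts scaled to read depth. A shared peak is one whose calls in both libraries overlap. The promoters of Chrna7, Drd1, Adra2a and Adrb1 carried the 4 highest signals among the receptor genes, and their sequences show what an accessible receptor promoter looks like. Each is the stretch of the promoter peak called in both libraries, read 5′ to 3′ on the gene's strand from the RefSeq sequence of GRCm38.p6. Capitals mark bases that lay in footprints, short protected stretches inside open DNA, of both libraries.
Chrna7: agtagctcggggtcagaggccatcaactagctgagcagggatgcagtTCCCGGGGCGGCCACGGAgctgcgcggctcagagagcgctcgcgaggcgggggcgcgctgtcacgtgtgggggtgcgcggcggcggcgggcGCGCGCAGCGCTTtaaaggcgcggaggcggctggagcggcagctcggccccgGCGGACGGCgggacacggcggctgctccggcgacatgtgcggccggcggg
Drd1: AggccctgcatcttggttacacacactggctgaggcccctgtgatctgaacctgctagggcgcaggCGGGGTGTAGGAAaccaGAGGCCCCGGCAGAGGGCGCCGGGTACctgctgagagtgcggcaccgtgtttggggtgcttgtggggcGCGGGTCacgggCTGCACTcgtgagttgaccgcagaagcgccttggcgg
Adra2a: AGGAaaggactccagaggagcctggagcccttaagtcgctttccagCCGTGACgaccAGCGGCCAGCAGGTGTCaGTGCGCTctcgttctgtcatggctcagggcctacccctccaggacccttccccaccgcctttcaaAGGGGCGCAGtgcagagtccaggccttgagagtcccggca
Adrb1: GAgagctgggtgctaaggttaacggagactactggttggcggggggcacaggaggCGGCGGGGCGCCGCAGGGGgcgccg

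The Chrna7 stretch (mm10 chr7:63212461-63212700, minus strand) spans the start site and holds 3 footprints and 38 CpG in 240 bases. The Drd1 stretch (chr13:54055641-54055840, minus strand) also spans its start and holds 4 footprints, with 14 CpG in 200 bases. The Adra2a stretch (chr19:54044501-54044680, plus strand) lies 350 to 529 bases after the annotated start. The Adrb1 stretch (chr19:56721761-56721840, plus strand) lies before the start and is only 80 bases long, because the peaks of the libraries overlapped little. All 4 are rich in G and C, between 63.3% and 76.2%.

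The promoters of Chrnb2 and Hrh2 are shown because at least 50% of a searched motif lay in a footprint merged from both libraries. The first is Chrnb2 (chr3:89764406-89764534, minus strand), with capitals on the left part of the element bound by REST, a repressor of neuronal genes outside neurons. The second is Hrh2 (chr13:54192021-54192140, plus strand), with capitals on the GC box read by SP and KLF factors.
Chrnb2: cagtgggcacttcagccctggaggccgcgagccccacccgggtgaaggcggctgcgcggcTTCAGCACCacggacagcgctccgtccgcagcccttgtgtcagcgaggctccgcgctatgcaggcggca
Hrh2: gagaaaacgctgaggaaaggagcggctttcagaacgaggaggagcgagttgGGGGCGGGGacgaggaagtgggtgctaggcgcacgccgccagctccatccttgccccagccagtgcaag

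In Chrnb2 the letters TTCAGCACC are followed after 2 bases by GGACAG, and of 20807 protein-coding promoters 12 (0.0577%) hold this pair in this spacing, with Chrnb2 the only receptor gene among them. The right part of the pair was chosen after the sequence had been seen, so Chrnb2 was certain to be among the 12. The letters TTCAGCACC alone were in 1 of 49 receptor promoters (2.04%), beside 324 of 20807 promoters (1.56%). In replicate 2 a footprint of 17 bp (chr3:89764455-89764471) covered 6 of the 9 letters TTCAGCACC. In replicate 1 footprints of 7 bp and 10 bp flanked these letters and left nearly all of them uncovered, so the libraries place the protected bases differently. The Hrh2 match GGGGCGGGG lay wholly inside footprints of 20 bp in replicate 1 and 18 bp in replicate 2. A match describes letters and does not show that a factor was bound.

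The 3 strongest distal sites of the receptor loci by mean signal, peaks away from every annotated start, are shown for their footprints. They were chosen after their values were known. Capitals again mark bases in footprints of both libraries, read on the strand of the receptor gene.
Htr2a intron: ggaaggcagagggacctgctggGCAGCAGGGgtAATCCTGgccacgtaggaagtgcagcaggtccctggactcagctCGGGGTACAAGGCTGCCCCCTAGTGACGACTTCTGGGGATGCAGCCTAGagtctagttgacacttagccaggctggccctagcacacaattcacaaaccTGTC
Htr1b downstream: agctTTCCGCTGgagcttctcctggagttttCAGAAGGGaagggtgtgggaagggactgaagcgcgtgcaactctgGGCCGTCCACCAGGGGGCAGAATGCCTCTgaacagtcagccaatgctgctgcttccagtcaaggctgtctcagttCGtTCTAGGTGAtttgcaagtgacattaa
Chrm1 upstream: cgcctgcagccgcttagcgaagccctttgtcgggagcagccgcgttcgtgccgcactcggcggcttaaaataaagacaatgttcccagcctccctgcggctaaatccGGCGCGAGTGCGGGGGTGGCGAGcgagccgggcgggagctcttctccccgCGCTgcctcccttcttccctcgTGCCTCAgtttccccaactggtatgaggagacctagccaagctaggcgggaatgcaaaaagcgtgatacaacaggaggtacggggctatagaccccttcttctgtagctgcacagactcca

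The Htr2a site (chr14:74643461-74643640) lies in an intron and had 69 of its 180 bases in shared footprints. The Htr1b site (chr9:81627021-81627200) lies past the gene's end, and bases 83 to 94 as printed match the motif of CTCF, the factor that anchors chromatin loops. All 12 bases of that match fell in shared footprints. Only exact matches were searched, so a near match at the other sites would not be listed. The Chrm1 site (chr19:8661941-8662240) lies before the gene and holds 25 CpG in 300 bases.

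Receptor promoters were open about as often as promoters in general but at low height. Of the 49 receptor genes, 32 (65.3%) had a shared promoter peak, beside 60.1% of all protein-coding genes. Chrm4 had a peak in each library that did not overlap, and 16 genes had none in either. Counting a peak at any annotated start, 36 of 49 had one, beside 65.6% of all genes. Among the 32, the median promoter signal was 1.14 in replicate 1 and 1.02 in replicate 2, against 2.86 and 3.12 over all genes with a shared promoter peak. The median receptor promoter stood at percentile 16.2 of all such promoters. Chrna7 alone reached the median of all genes, 3.0 over the mean of both libraries. Signals below 1 in both libraries were found for 14 of the 32 receptor promoters (43.8%) and for 12.8% of all. The share with a peak is near the background, and the height is where the receptor genes stand low, as do the other receptor families of brain described below.

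**Figure D1:**
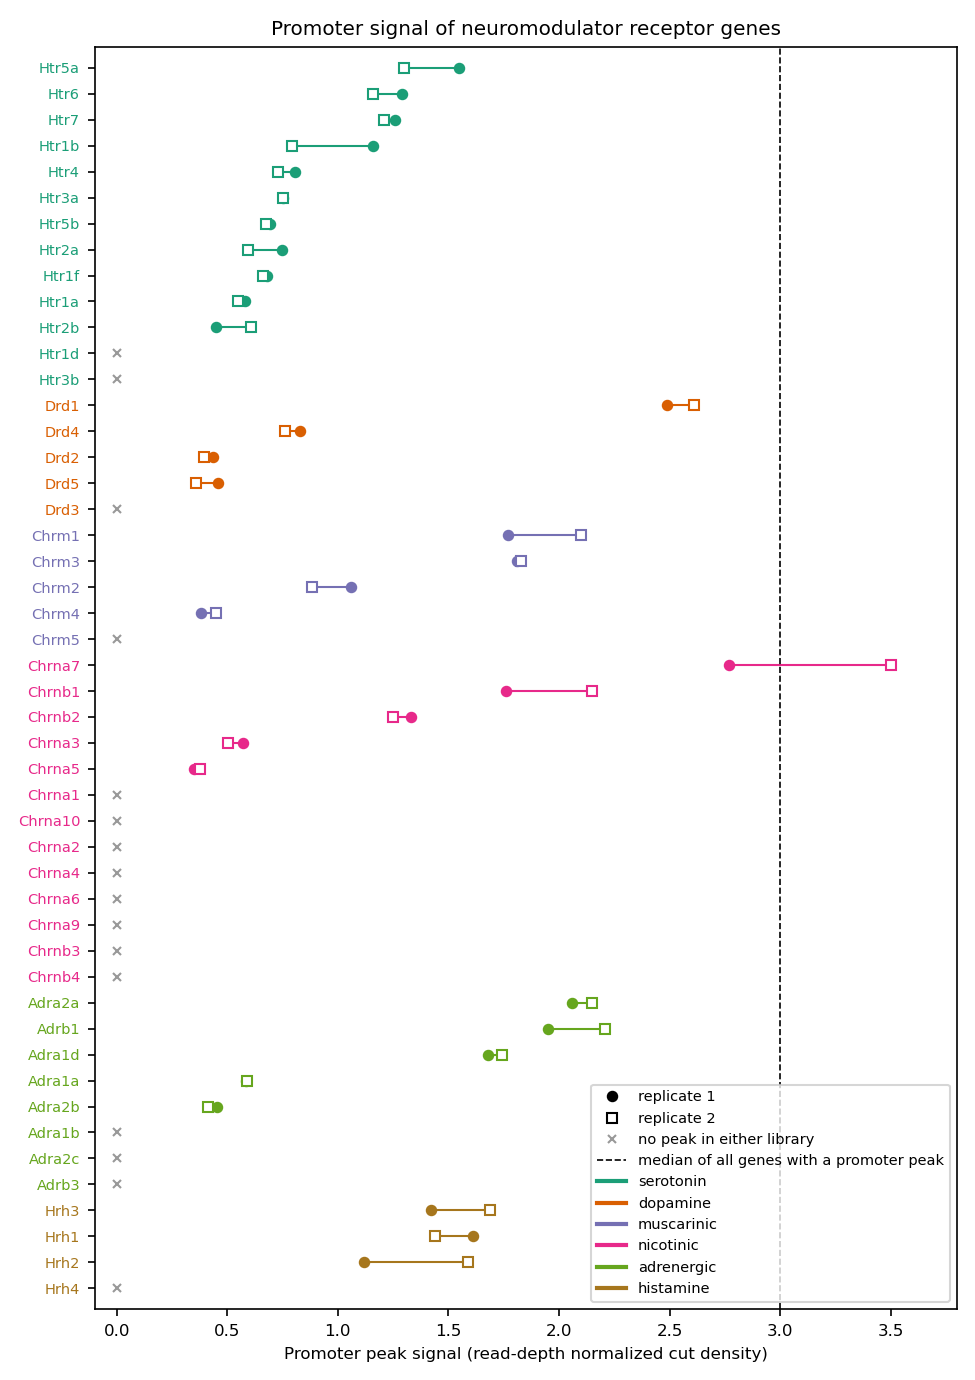
Promoter peak signal of the receptor genes (x axis, read-depth normalized cut density) by transmitter, with replicate 1 as filled circles, replicate 2 as open squares and genes without a peak as crosses at 0. Nearly all lie left of the dashed line, the median of 3.0 over all genes with a promoter peak, and only Chrna7 reaches it.

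The libraries ordered the receptor promoters alike. Over the 32 genes the log2 signals correlated with Pearson's r of 0.97 and Spearman's rho of 0.973, a description across genes, which are not independent replicates and share both libraries. The log2 ratio of replicate 2 to replicate 1 had a median of -0.03. It ran from -0.55 at Htr1b to 0.51 at Hrh2, so neighbours in the order that differ by less than about this much cannot be ranked. Words such as highest or second describe the values as measured, not a settled rank.

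Serotonin receptors had many open promoters and low signals. A shared peak was present at 11 of 13 starts, beside 60.1% of all genes, and the median signal of the 11 was 0.752. The same 60.1% stands beside the counts of the other transmitter families below, which were not tested against it. Among the Gi-coupled members, Htr5a had the highest signal of the family, with 1.55 in replicate 1 and 1.30 in replicate 2 (mean 1.43 ± 0.18, SD, n = 2). Htr1b, a presynaptic receptor on serotonin and other terminals, had 1.16 and 0.792, the widest log2 ratio, in size, between libraries among the 32 genes. Htr5b had 0.693 and 0.677. Htr1f had 0.678 and 0.663, and its peak is absent from the stricter peak list. Htr1a, the autoreceptor of serotonin neurons that cortical pyramidal cells also carry, had 0.581 and 0.547. Its mean of 0.564 became 1.02 ± 0.27 (SD, n = 2) with a window of 1 kb, so its low place among these genes rests on the narrower window. Within 500 bp, only Htr5a exceeded 1 in both libraries among these Gi-coupled genes. Htr1d had no peak at its outermost start, and one of 0.397 and 0.605 at an annotated start 1088 bp inside the gene.

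The Gs-coupled serotonin receptors were all open. Htr7 had 1.26 and 1.21, and Htr6 had 1.29 and 1.16, so that they overlapped. Htr4 was lower in both libraries, with 0.804 and 0.730. Among the Gq-coupled pair, Htr2a, the main target of serotonergic hallucinogens and a receptor of cortical pyramidal cells, had 0.746 and 0.595. Htr2b, known mainly from heart and gut, had 0.451 and 0.605. The 2 genes overlapped in signal at their promoters, although their loci differed elsewhere. Of the channel subunits, Htr3a had 0.751 and 0.754, while Htr3b, which joins Htr3a in heteromeric channels, had no promoter peak.

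Dopamine receptors split into a high and several low promoters. Drd1, the D1-type receptor that raises cyclic AMP, had 2.49 and 2.61 (mean 2.55 ± 0.087, SD, n = 2), second among all receptor genes and at percentile 41.8 of all promoters. The other D1-type gene, Drd5, had 0.460 and 0.360. The pair was well separated in both libraries. Among the D2-type genes, which lower cyclic AMP, Drd4 had 0.828 and 0.759 and Drd2 had 0.436 and 0.394. Drd3 had no promoter peak. Markers of striatal neurons, where Drd1 and Drd2 are most abundant, had shared promoter peaks in 5 of 5 genes, beside 60.1% of all genes. Their signals were 1.03 to 3.96, and the part of striatal neurons in the Drd1 value was not tested.

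Muscarinic receptors had a median signal of 1.82 over the 3 of 5 genes with a shared promoter peak, close to the adrenergic median of 1.77 over 6 of 9. The Gq-coupled Chrm1, the main muscarinic receptor of cortical pyramidal cells, had 1.77 and 2.10. Chrm3, also Gq-coupled, had 1.81 and 1.83. These 2 genes overlapped. Chrm2, a Gi-coupled receptor of heart and of cholinergic terminals, was lower with 1.06 and 0.884. Chrm4, likewise Gi-coupled, had weak and non-overlapping promoter peaks of 0.383 and 0.447 within 500 bp of its start. With a window of 1 kb Chrm4 had a shared peak of 2.22 and 2.56, so its low place rests on the narrower window. Chrm5, a Gq-coupled receptor known from midbrain dopamine neurons, had no promoter peak.

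Nicotinic subunits were the group with the most closed promoters, with 5 of 13 shared, beside 60.1% of all genes. Chrna7, which forms channels of its own subunit alone and is permeable to calcium, had the highest promoter signal of any receptor gene, 2.77 in replicate 1 and 3.50 in replicate 2 (mean 3.13 ± 0.51, SD, n = 2). Chrnb1, a subunit of the muscle receptor, followed with 1.76 and 2.15. Its promoter was open although Chrna1, its partner in muscle, had no promoter peak, and neither had Chrnd, Chrne or Chrng at the outermost start. Chrne did have a shared peak at another annotated start. The nearest other coding start, that of Fgf11, lies 5914 bp from the Chrnb1 start. Chrnb2, part of the main nicotinic receptor of brain, had 1.33 and 1.25.

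Chrna4, the usual partner of Chrnb2, had no peak at its outermost start. A peak of 1.02 and 0.634 lay instead at an annotated start 4471 bp inside the gene, so the absence depends on which start is used. The genes Chrna5, Chrna3 and Chrnb4, which lie side by side on chromosome 9 and encode the subunits of autonomic ganglia, were weak or closed. Chrna3 had 0.572 and 0.504 and Chrna5 had 0.349 and 0.375, the lowest of all 32. Chrnb4 had no promoter peak. Chrna6 and Chrnb3, neighbours on chromosome 8 known from midbrain dopamine neurons, had none, nor had Chrna2. Chrna9 and Chrna10, the pair of inner ear hair cells, had none either.

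Adrenergic receptors included several of the higher promoters. Among the Gs-coupled beta receptors, Adrb1 had 1.95 and 2.21. Adrb3, known from fat, had no peak at its outermost start. A start 22122 bp inside the Adrb3 gene had 1.27 and 0.427, a wide spread between libraries that leaves its level uncertain. Among the Gi-coupled alpha-2 receptors, Adra2a, the autoreceptor of noradrenergic terminals, had 2.06 and 2.15. Adra2b had 0.455 and 0.413 within 500 bp of its start. With a window of 1 kb Adra2b averaged 2.34 ± 0.16 and Adra2a 2.18 ± 0.037 (SD, n = 2 each), so the gap between them rests on the narrower window. Adra2c had no peak within 500 bp, and a peak of 2.24 and 1.98 centred 672 bp after its start, as high as that of Adra2a.

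Of the Gq-coupled alpha-1 receptors, Adra1d had 1.68 and 1.74 and Adra1a had 0.586 and 0.591. With a window of 1 kb the Adra1a mean of 0.588 became 0.972 ± 0.0025 (SD, n = 2). Adra1b had no peak at its outermost start. An internal start 64878 bp further on had 2.14 and 2.64 (mean 2.39 ± 0.35, SD, n = 2), higher than the promoters of Adra1d and Adra1a in both libraries. Its gene was thus open at a strong internal start, and the count at the outermost start understates it.

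Histamine receptors were open in 3 of 4 genes at a similar level. Hrh3, the Gi-coupled autoreceptor of histamine neurons, had 1.42 and 1.69, Hrh1, Gq-coupled, had 1.61 and 1.44, and Hrh2, Gs-coupled, had 1.12 and 1.59. These 3 overlapped between libraries and could not be ordered. Hrh4, known from blood cells, had no promoter peak.

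By mode of action, a shared promoter peak was found in 26 of 34 G protein-coupled receptors and in 6 of 15 channel subunits, beside 60.1% of all genes. Gs-coupled receptors had 8 of 9, Gi-coupled receptors 11 of 16 and Gq-coupled receptors 7 of 9. Median signals were 1.10 for the G protein-coupled receptors and 1.02 for channel subunits. These medians were close to each other.

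CpG number went with whether a receptor promoter had a peak. Within 500 bp of the start, the 32 promoters with a shared peak had a median of 47.5 CpG and the other 17 a median of 13, against 43 over all genes. With all promoters split into 3 groups of near-equal size, a shared peak was found in 3 of 18 receptor promoters of 0 to 18 CpG (16.7%), against 6.96% of all genes. Between 19 and 60 CpG it was 17 of 19 (89.5%), against 75.4%, and from 61 CpG up it was 12 of 12, against 96.6%. With this larger peak list, the receptor share was in none of the 3 groups below that of all genes. The stricter peak list, which lacks the peaks of Adra2b, Drd5 and Drd2 in the high group, was not split by CpG.

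Height was low even where CpG was high. The median signal of receptor promoters was 0.752 in the low group, the same as the 0.752 over all genes. In the middle group it was 0.794, against 2.44, and in the high group it was 1.54, against 3.66. The 3 low-CpG receptors with a peak were Htr2b, Htr3a and Chrm1, and the 2 receptors above that range without a shared peak were Adra2c and Chrnb4. Drd2 and Drd5, with 87 and 76 CpG, were CpG-rich and yet had signals under 0.5 in both libraries. Adra2b, with 73 CpG, was as low within 500 bp but averaged 2.34 with a window of 1 kb.

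**Figure D2:**
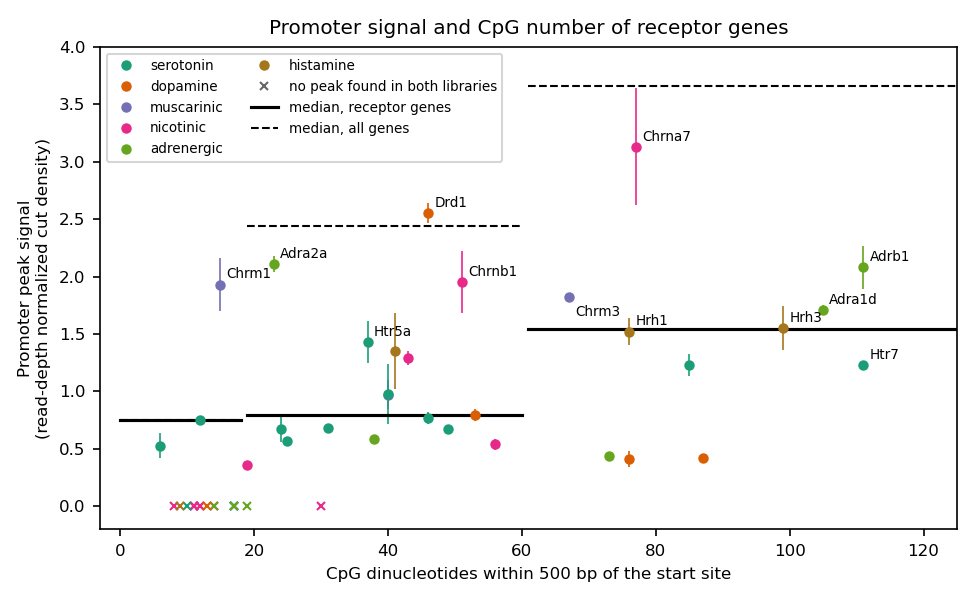
Promoter signal (y axis, mean of both libraries with SD bars, n = 2) against CpG number within 500 bp of the start (x axis) for the receptor genes, with solid lines for receptor medians and dashed lines for medians of all genes in each CpG group. The receptor medians of 0.794 and 1.54 lie below the all-gene medians of 2.44 and 3.66, while in the low group both are 0.752 and the lines coincide; the all-gene high group runs on to 172 CpG, beyond the axis.

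Receptor promoters with a peak held fewer shared footprints than such promoters in general. The receptor promoters held 182 footprints in replicate 1 and 164 in replicate 2, of which 71 merged footprints were found in both. A shared promoter footprint was present in 24 of 49 receptor genes, beside 55.4% of all genes. Among promoters with a shared peak, 24 of 32 receptor genes (75.0%) had a shared footprint, against 92.0% of all, with a median of 2 against 4 per promoter. Adrb1 had the most, 8, and its promoter is also among those with the most CpG. As a group, receptor promoters thus had both lower signals and fewer shared footprints, and the part of signal in the footprint counts was not tested.

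Motif letters were searched on both strands within 500 bp of each start. Only exact matches were counted, so near matches of any motif were not seen. The EGR site GCGNGGGCG was in 10 of 49 receptor promoters (20.4%), beside 15.6% of all. The SP and KLF box GGGGCGGGG was in 8 (16.3%), beside 23.4% of all. The 2 patterns share letters and can overlap, and both were present in Adrb1, Chrna7, Drd4, Htr6 and Htr7. The AP-1 site TGANTCA was in 13 (26.5%), beside 18.8% of all. The NEUROD site CAGATGG was in 2 (4.08%), Adra2b and Chrnb3, beside 15.3% of all. The CREB site TGACGTCA, the NRF1 site GCGCATGCG, the RFX site GTTGCCATG and the CTCF motif were in none, beside 3.33%, 3.02%, 1.35% and 1.04% of all.

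Distal sites were common at receptor loci. A distal site is a shared peak in the gene or within 10 kb of it whose centre lies over 1 kb from every annotated start. Of the 49 receptor genes, 35 (71.4%) had at least 1, beside 59.9% of all genes. The loci held 183 shared peaks, of which 83 lay within 1 kb of a start and 100 were distal. Of the 100, 57 were in introns, 13 in exons, 16 upstream and 14 downstream. Their median signal was 0.607, against 0.668 over 52731 distal peaks of the genome, and 59 of 100 (59.0%) had a shared footprint, against 65.1%. The count of 100 rests on the demand that both libraries agree: replicate 2 alone gave 156 and replicate 1 alone 189.

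Longer loci hold more peaks, so receptor loci were set beside loci of like length. In the shortest of 5 length groups, 20.1 to 25.4 kb, 7 of 11 receptor genes (63.6%) had a distal site, against 37.3% of all, with 1.36 against 0.667 sites on average. In the longest group, from 78.4 kb, 11 of 12 (91.7%) had one, against 89.6%, with 3.58 against 5.32 on average. In the short group Chrm4 alone gave 7 of the sites.

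Chrm3, a gene of 485 kb, had the most distal sites, 12, all in introns. Their signals were low, the highest being 1.23 and 1.45 at 478 kb from the start, and 11 of the 12 lay under 0.65 in both libraries. Chrm4, a gene of 1.44 kb, had 7, of which 5 lay upstream. Annotated bodies of 3 other genes reach into the Chrm4 locus, among them Mdk, so these sites cannot be assigned to Chrm4. Adra1b had 6 and Chrnb3 had 5. Chrm1, Chrna9, Hrh1, Hrh2, Htr1b, Htr2a and Htr7 had 4 each. Chrnb3 thus had several distal sites and no promoter peak, with its strongest site at 0.557 and 0.730.

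**Figure D3:**
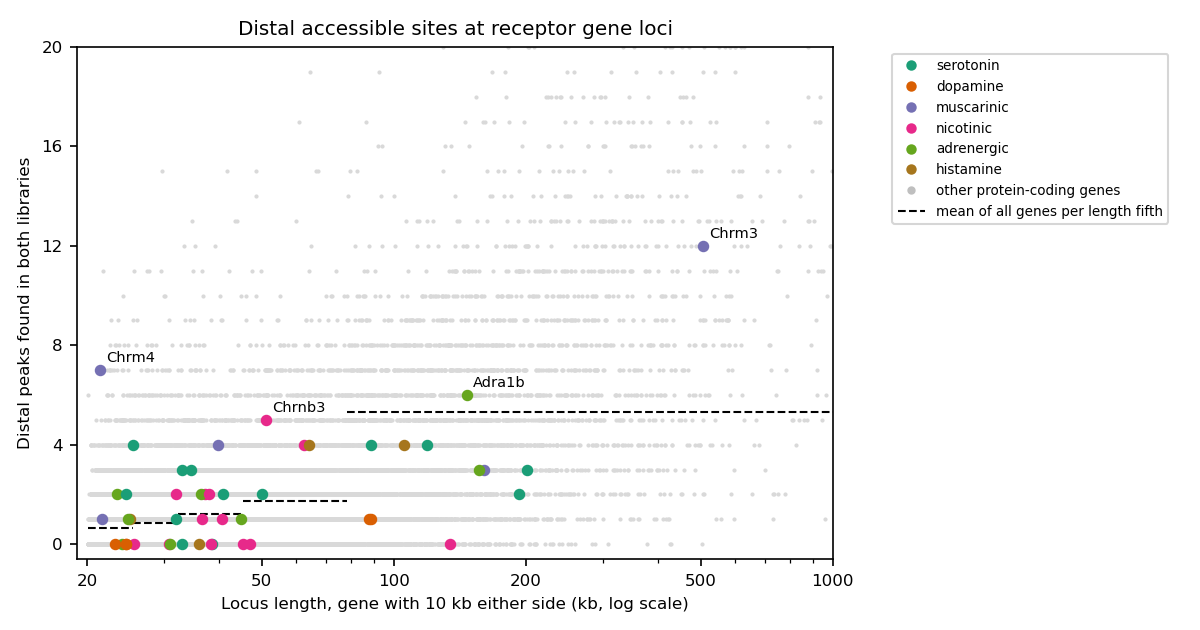
Distal peaks found in both libraries (y axis) against locus length (x axis, log scale) for receptor genes in colour and other protein-coding genes in grey, with dashed lines for the mean of all genes in each length group; genes over 20 peaks or 1000 kb are not drawn. Chrm4 with 7 peaks lies above the line of its length group and Chrm3 with 12 is the highest receptor gene.

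**Figure D4:**
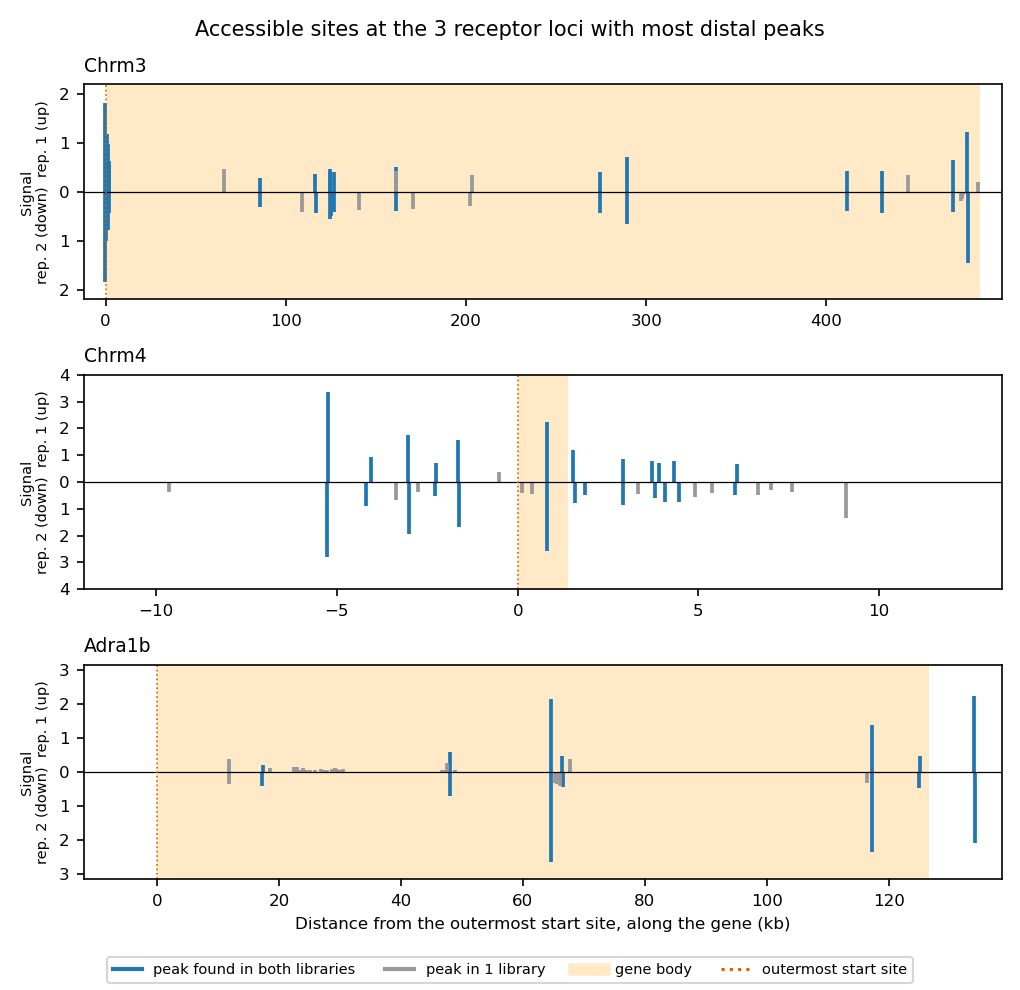
Peak signal (y axis, replicate 1 upward and replicate 2 downward, read-depth normalized cut density) against distance from the outermost start in kb along the gene (x axis) for Chrm3, Chrm4 and Adra1b. Blue peaks were found in both libraries, and the plot shows the 12 low intronic sites of Chrm3, the sites upstream of Chrm4 and the strong internal start of Adra1b.

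The strongest distal sites were as high as or higher than the receptor promoters. The Htr2a intron site, 2.71 kb from the start, had 3.55 in replicate 1 and 4.27 in replicate 2 (mean 3.91 ± 0.51, SD, n = 2), at percentile 99.1 of all distal peaks. The Htr1b site, 6.72 kb from the start, had 2.69 and 4.05, percentile 98.4. The Chrm1 site, 1.70 kb before the start, had 3.20 and 3.39, percentile 98.3. In all 3 genes the distal site exceeded the promoter in both libraries.

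The other 7 of the 10 strongest distal sites lay at genes weak or closed within 500 bp of their outermost start, with the exception of Chrnb1. The Chrm4 upstream site (chr2:91921781-91922200) had 3.34 and 2.81, and Chrm4 also had a peak of 2.22 and 2.56 within 1 kb of its start. An intron of Chrna1 had 2.80 and 2.59 (chr2:73572541-73572740), although Chrna1 had no promoter peak. A site past the end of Adra1b had 2.23 and 2.08, with Ttc1 as the nearest coding start at 19113 bp. The Htr3a locus had a downstream site of 1.79 and 2.40, above its promoter in both libraries. An exon of Chrna9 had 1.85 and 2.26. A site before Chrnb1 had 1.82 and 2.20, but it lay 1094 bp from the start of Fgf11 and 7.01 kb from that of Chrnb1. The intron site of Chrna3, which also falls in the flank of Chrnb4, had 1.77 and 2.06. These 7 sites were therefore strong in both libraries, and several have another gene nearby.

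Of the 22 receptor genes with both a shared promoter peak and a distal site, the strongest distal site exceeded the promoter in both libraries in 11. Among the 11 is Chrnb1, by a narrow margin of 1.82 and 2.20 against 1.76 and 2.15, with its site nearer to Fgf11. A further 13 had a distal site but no shared promoter peak. These counts were not made over all genes, so whether they are particular to receptor genes is not known. Where a locus held several distal sites, the highest was taken. The reverse pattern was seen at Chrna7, Drd1 and Adrb1, which had 3 of the 4 highest promoter signals and no distal site. At Adra2a the one distal site, in an exon, had 0.620 and 0.495, far under its promoter.

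**Figure D5:**
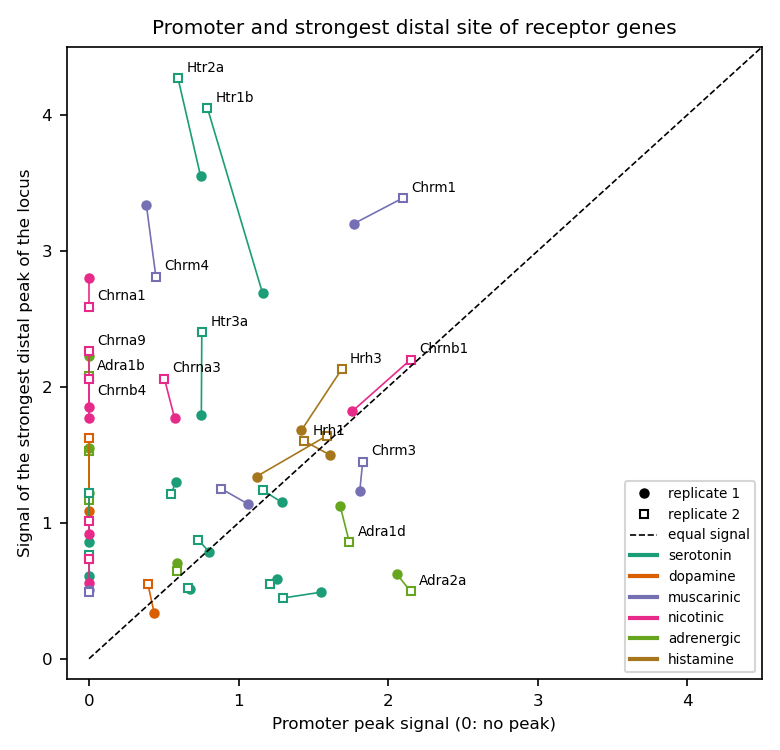
Signal of the strongest distal peak (y axis) against promoter peak signal (x axis, 0 for no peak), both as read-depth normalized cut density, for receptor genes with a distal site, with replicate 1 as filled circles joined to replicate 2 as open squares. Htr2a, Htr1b and Chrm4 lie far above the dashed line of equal signal, and Adra2a and Adra1d lie below it. Chrm4 is drawn with its peaks within 500 bp of the start, not with its higher peak within 1 kb.

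The receptor genes without a shared promoter peak differed in what else their loci held. At Drd3 an intron site 48.2 kb from the start had 1.09 and 1.62. At Htr3b the highest peak had 0.862 and 1.22, and at Chrna2 it had 0.916 and 1.01. These 3 loci had sites of middling height. At Adrb3 the highest shared peak had 1.22 and 1.53, at Htr1d it had 0.610 and 0.764, and at Chrm5 it had 0.509 and 0.490. In the Chrna6 and Chrna10 loci no peak was listed in either library. In the Hrh4 locus the only peaks were in replicate 2, at up to 0.485, and Chrna4 had no distal site. These 4 genes were the ones with neither a shared promoter peak nor a distal site. In the deposited cut-rate tables, which list stretches with an FDR under 0.05, the promoter windows of 1 of the 16 receptor genes with no promoter peak were listed in both libraries, Adra2c, with 201 bp and 255 bp. Over all genes without a promoter peak it was 94 of 7572 (1.24%).

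At distal sites, 200 bp around the peak centre were searched for the same letters. CTCF motifs were in 9 of the 100 sites, beside 7.94% of all distal peaks. The NEUROD site was in 13, beside 11.1%, and the AP-1 site was in 13, beside 11.9%. The receptor sites thus held these motifs about as often as distal sites in general.

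The genes around the receptors in the same pathways gave a contrast in height. Desensitisation genes, which switch receptors off, were open at 9 of 9 promoters and had a median signal of 4.34. Rgs2, which speeds G protein turn-off, had 5.22 and 6.36, and Arrb2, an arrestin, had 5.29 and 6.23. Of the G protein alpha subunits 10 of 10 had one, with a median of 3.0, and Gnao1, the most abundant of brain, had 3.93 and 4.38. Effectors, the adenylyl cyclases and phospholipases C, had 11 of 12, with a median of 1.73. The receptor median of 1.10 was below the medians of these 3 groups, and a shared peak over all genes was found at 60.1%.

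Synthesis genes were closed in most cases, with a shared promoter peak in 2 of 8. This count and those of the next groups stand beside 60.1% of all genes. Dbh, which makes noradrenaline, had 1.14 and 1.71, and Tph2, which makes serotonin in neurons, had 0.891 and 1.05. Th, Ddc, Pnmt, Tph1, Hdc and Chat had no promoter peak in either library. Uptake and vesicle transport genes had 7 of 9 with a median of 0.408, among them the serotonin transporter Slc6a4 with 0.417 and 0.399. Slc18a1 stood far above the others of this group, with 7.8 and 8.24. Breakdown genes had 4 of 4, among them Ache, which splits acetylcholine, with 1.95 and 1.88. Of the nicotinic chaperones and modulators, Ric3, which helps Chrna7 fold, had 3.53 and 4.76, above Chrna7 itself in both libraries, while Lynx1, a brake on nicotinic receptors, had 1.69 and 1.60.

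Marker genes of cell types were read in the same way as a check of the tissue. Shared promoter peaks were found in 7 of 8 excitatory neuron markers and 3 of 7 inhibitory neuron markers. All these counts stand beside 60.1% of all genes. Shared peaks were found in 3 of 5 astrocyte, 2 of 5 oligodendrocyte, 1 of 5 endothelial and pericyte and 0 of 5 microglia markers. None of the 5 markers of tissues outside brain had one. Counting any annotated start, it was 8 of 8 excitatory, 5 of 7 inhibitory and 1 of 5 microglia markers, beside 65.6% of all genes. The other marker groups kept their counts, so the low inhibitory count rests on the outermost start. Markers of monoamine and cholinergic cell bodies, which lie in other brain regions, had 4 of 6, namely Tph2, Slc6a3, Slc6a4 and Dbh, with signals of 0.408 to 1.42. The promoter signals of excitatory markers ran from 0.994 to 3.0, and those of inhibitory markers from 0.441 to 0.680.

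Other receptor families of brain were set beside the neuromodulator receptors, with medians over the genes that had a shared promoter peak. Their counts of genes with such a peak stand beside 60.1% of all genes. The median promoter signal was 1.10 over 32 of 49 neuromodulator receptor genes, against 1.15 over 7 of 8 metabotropic glutamate receptors. Single genes ranged from 0.362 to 3.13 in the first group and from 0.721 to 2.09 in the second, so the ranges overlapped. The median was 1.61 over 10 of 16 GABA-A subunits and 1.95 over 12 of 15 subunits of fast glutamate receptors. Each of these families thus also had a median below the 3.0 over all genes with a promoter peak. No test of these differences was made.

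The 4 HtrA protease genes that the symbol rule also finds had a shared promoter peak in 4 of 4, beside 60.1% of all genes. Htra1 had 1.54 and 1.76, Htra3 had 0.465 and 0.571, and Htra4 had 0.625 and 0.610. Htra2 had 4.81 in replicate 1, and in replicate 2 the overlapping peak ended just outside the window. With them the rule gives 36 of 53 genes with a shared promoter peak.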

How the data were processed

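Per the labels, reads were aligned to mm10; which aligner and callers were used is not given in the sources used here. The authors deposited, for each library, 2 peak lists with a signal per peak (cut density normalized to read depth), footprints with an FDR as a fraction, 0.01 throughout, and cut-rate tables of q-values (adjusted p-values) below 0.05. Reads from the CAST/EiJ copy may align less often; alleles were not analysed here. Genes came from GENCODE M21 on GRCm38.p6. Peaks of the larger list were merged at an overlap of 1 bp with Python 3.11.15 (numpy 2.4.6), cut-rate tables were intersected with bedtools 2.31.1, and figures used matplotlib 3.10.9. Merging was tested on simulated data. All members were named but 1, which is not reported here and not drawn but is in the counts, with the 10 strongest distal sites and the genes with most distal sites. Members and lists were chosen with earlier results of these data known. Alternatives changed the peak list, window, overlap, flank, distal limit and library; 1, with the HtrA genes, was chosen after seeing the data.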

Additional observations from a re-analysis of the deposited data

How the results depend on the processing

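The 49 receptor genes gave 32 with a shared promoter peak (65.3%, beside 60.1% of all genes), and every alternative kept that count between 23 and 36. The place beside all genes did not hold throughout. With the stricter peak list it was 24 (49%), beside 56.2% of all genes. With the upper 50% of peaks by signal it was 23, beside 56%, and with a reciprocal overlap of 50% it was 25, beside 54.7%. In these settings the receptor share was below that of all genes. Genes with a distal site numbered 26 to 48, against 35. The 48, with a flank of 50 kb, stood beside 84.2% of all genes. It was 26 without a flank, beside 39.4%, and 26 with a distal limit of 2.5 kb, near the 50.2% of all genes. Genes with a shared promoter footprint numbered 22 to 32, against 24. The 22, with a reciprocal overlap of 50%, stood beside 52.9% of all genes, and the 32, from replicate 2 alone, beside 60.1%. The number of distal sites, 100, moved by more than 1.5 times in several cases. It was 45 with the stricter peak list, 48 with the upper 50% of peaks by signal and 207 with a flank of 50 kb. Taken from a single library it ranged from 156 to 189. A promoter window of 1 kb added Chrm4, Adra2c and Htr1d, giving 35. The stricter list lost 8 promoters, Htr2b, Adra2b, Drd5, Drd2, Chrna5, Chrna3, Adra1a and Htr1f. Promoter signals moved by more than their SD in 6 of 32 genes with the window of 1 kb (Adra2b to 2.34, Htr1a to 1.02, Adra1a to 0.972, Hrh1 to 1.65, Chrna5 to 0.420 and Adra2a to 2.18) and in 3 with any annotated start. With the 4 HtrA genes the counts were 36, 38, 106 and 26. No paired analysis was possible because the study has only 1 group. With 2 animals an SD is a rough guide, and weak sites in rare cell types may be missed at this depth.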
